A study of Mus musculus with 6 samples.

Results

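A set of 10 mouse genes of sebaceous gland lipid metabolism was followed in imiquimod-treated and vehicle-treated back skin: Mc5r, Scd3, Elovl3, Fa2h, Far2, Awat1, Awat2, Dgat2l6, Soat1 and Dgat2. Probes were taken when the gene name on the array was one of these symbols or an older symbol of the same gene, which gave 14 of 41115 probes and 9 of the 10 genes. Awat1 was not matched and was not analysed here. Of the 9 genes, 8 were bright enough to test among 17778 genes, and Mc5r was not.

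Sebaceous glands sit beside the hair follicle, and their cells fill with lipid and burst to release sebum. Mouse sebum is rich in wax esters, sterol esters and other esters of long-chain acids and alcohols, which are made by elongating and desaturating fatty acids, reducing some of them to fatty alcohols and joining the products with acyltransferases. These steps define the order in which the genes are described, from the receptor to the enzymes that form the final esters.

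All skin was from females of the inbred C57BL/6J strain aged 6 to 8 weeks. Their shaved backs received 62.5 mg a day, for 7 days, of a cream with 5% imiquimod, a Tlr7 agonist that provokes psoriasis-like inflammation, or of a vehicle cream. Each group had 3 samples of whole-skin RNA, each on 1 single-colour Agilent array, and the labels do not say whether each came from its own animal, so the p-values cover sample-to-sample spread, part of which may be technical. An array had 61.2% to 67.4% of its probes well above background. With 3 arrays a group, precision is limited by their number. Krt5, Krt14, Krt1 and Krt10, keratins of the epidermis, were well above background on all 6 arrays.

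The records disagree on which arrays are which. In 6 of 6 cases the scanner file bore in its name the other treatment than the sample it was filed under. Each column of the authors' deposited value table, read by sample title, matched the array whose file name carries that treatment and number. Its Spearman correlation with that array was 0.9999997 or more (24253 probes), and 0.943 to 0.952 with the one filed under the title. Arrays are therefore grouped here by the file names, and reading them by the filing would leave each size as it is and turn every sign. Slide 1 held imiquimod array 1 and the 3 vehicle arrays, and slide 2 held imiquimod arrays 2 and 3. Vehicle arrays 2 and 3 carry the quality status evaluate from the extraction software.

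Sebaceous lipid genes fell in imiquimod skin, among them Elovl3 by 42.5-fold, Fa2h by 59.6-fold and Soat1 by 4.36-fold. Of the 8 genes tested, 7 fell (Scd3, Elovl3, Fa2h, Far2, Awat2, Dgat2l6 and Soat1), 0 rose, and Dgat2 did not pass, where 10.5% of all genes tested fell and 13.1% rose in limma at a Benjamini-Hochberg adjusted p under 0.05. In each of the 7 genes every imiquimod array lay below every vehicle array, as in 20.7% of all genes. Genes that pass tend to have groups that do not overlap, so this describes the 7 and adds no support. The median log2 difference of the 8 genes was -5.57, against 0.02 over all genes tested. Scd3, Far2, Awat2 and Dgat2l6 were well above background on 1 or 2 imiquimod arrays and on 3 vehicle arrays, so the vehicle arrays alone met the minimum of 3 arrays for testing. Passing this way favours genes that differ, so the count and median above do not stand for all 10 genes. Elovl3, Fa2h and Soat1 fell with all 6 arrays well above background. In a bulk sample, fewer sebaceous cells and less RNA per cell cannot be told apart.

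**Figure D1:**
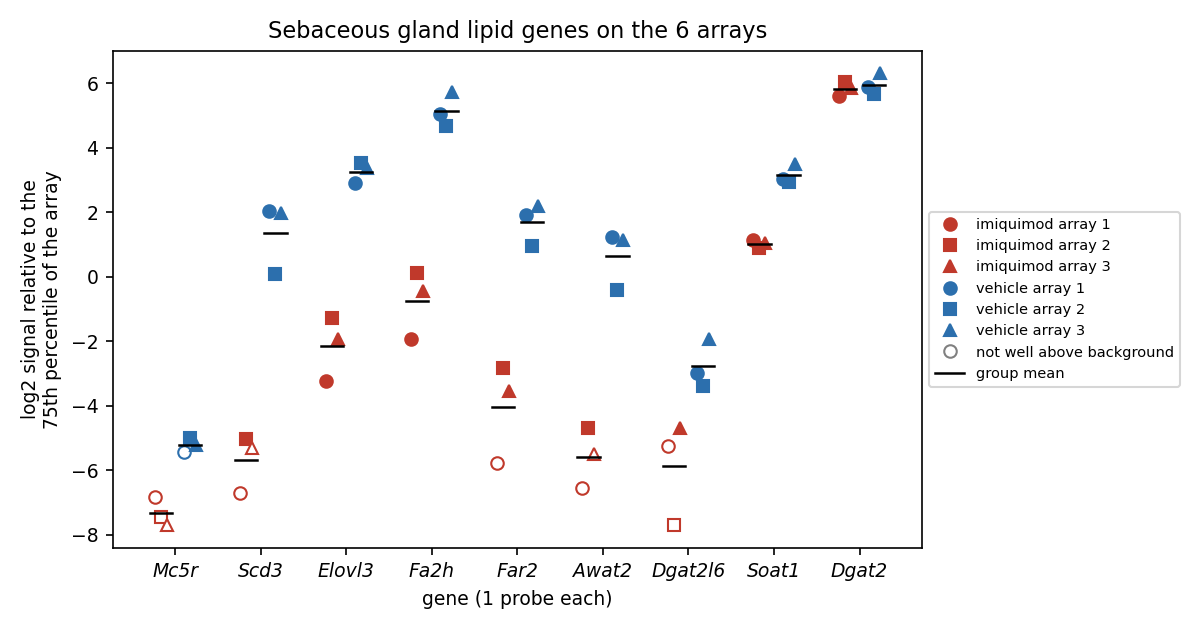
Log2 signal of each gene on each array, relative to the 75th percentile of that array, for imiquimod arrays in red and vehicle arrays in blue, with open symbols where the probe was not well above background and bars at the group means. The vehicle arrays lie above the imiquimod arrays for every gene except Dgat2. Heights are comparable within a gene, not between genes, which have different probes.

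Mc5r encodes the melanocortin receptor of exocrine glands, through which melanocortin peptides promote sebum production. Its processed signal, the scanner's background-subtracted brightness, was 7.48, 5.37 and 4.47 on imiquimod arrays 1, 2 and 3, against 25.5, 33.3 and 25.2 on vehicle arrays 1, 2 and 3. Only vehicle arrays 2 and 3 were well above background. With each imiquimod array raised to its dimmest probe that passed as well above background, the vehicle mean was 1.03-fold higher. That mean includes vehicle array 1, itself not well above background, so it sets no lower bound. The size of the gap could not be measured.

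Scd3 is a stearoyl-CoA desaturase known in mouse skin from the sebaceous gland, and it puts a double bond into saturated fatty acids. Its signal was 8.24, 28.4 and 23.2 on the imiquimod arrays, against 4517, 1125 and 3689 on the vehicle arrays. The groups were far apart, and imiquimod array 2 was the one imiquimod array well above background. The log2 difference was -7.06 (SE 0.68, adjusted p = 0.00279, limma), with group means of -5.69 ± 0.89 in imiquimod and 1.36 ± 1.10 in vehicle skin (SD, n = 3 each). Because the imiquimod level lay near background, the size depends on the background correction, and normexp correction with an offset of 50 gave -4.68 (adjusted p = 0.00263).

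Elovl3 elongates saturated and monounsaturated fatty acids to very long chains. It gave signals of 91.1, 382 and 244 on the imiquimod arrays, against 8235, 12083 and 9606 on the vehicle arrays. All 6 arrays were well above background, and no imiquimod array reached a level near the lowest vehicle array. Elovl3 was 42.5-fold lower in imiquimod skin (95% confidence interval 18.1 to 99.5), a log2 difference of -5.41 (SE 0.50, adjusted p = 0.00263, limma).

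Fa2h adds a hydroxyl group to fatty acids, which then enter hydroxylated sphingolipids and sebum lipids. The signals were 225, 1006 and 687 in imiquimod skin, against 36334, 26874 and 49163 in vehicle skin, all of them well above background. Again the groups did not overlap, and the spread was wider in imiquimod skin, at 4.13-fold from lowest to highest array, than the 2.06-fold of vehicle skin. Fa2h was 59.6-fold lower (95% confidence interval 22.8 to 156), a log2 difference of -5.90 (SE 0.57, adjusted p = 0.00279, limma).

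Far2 reduces fatty acyl-CoA to the fatty alcohols used in wax esters. Its brighter probe gave 15.8, 132 and 79.4 on the imiquimod arrays, against 4164, 2065 and 4303 on the vehicle arrays. Imiquimod array 1 was not well above background and stood apart from the other two. The log2 difference was -5.74 (SE 0.79, adjusted p = 0.00709, limma), with means of -4.05 ± 1.54 in imiquimod and 1.69 ± 0.64 in vehicle skin (SD, n = 3 each). Normexp correction gave -4.31 (adjusted p = 0.00127). A second Far2 probe, well above background on 2 vehicle arrays only, was too dim to test, with signals of 8.02, 10.7 and 5.26 in imiquimod skin and 21.4, 30.4 and 60.2 in vehicle skin. It also lay higher on every vehicle array.

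Awat2 joins fatty alcohols to fatty acids and so forms wax esters. It gave 9.12, 36.5 and 20.8 on the imiquimod arrays, against 2575, 798 and 2063 on the vehicle arrays, with imiquimod array 2 the only imiquimod array well above background. The log2 difference was -6.23 (SE 0.63, adjusted p = 0.00318, limma), with means of -5.58 ± 0.94 in imiquimod and 0.65 ± 0.91 in vehicle skin (SD, n = 3 each). Normexp correction gave -3.89 (adjusted p = 0.00246), so the fall passed under both corrections while its size rests partly on background.

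Dgat2l6 belongs to the same acyltransferase family as Awat2 and Dgat2. On the X chromosome, RefSeq's gene order (GRCm38.p6) runs Awat2, Otud6a, Igbp1, Dgat2l6, Awat1, so 3 of the 10 genes are close neighbours. The signals of Dgat2l6 were 22.8, 4.5 and 36.0 on the imiquimod arrays, against 138, 100.5 and 245 on the vehicle arrays, and only imiquimod array 3 was well above background in its group. Its log2 difference of -3.10 (SE 0.84) was the least secure of the 7, at an adjusted p of 0.0460 (limma). It missed the threshold in 11 of 16 alternatives, among them the fits without any 1 of the 6 arrays (-2.19 without imiquimod array 2 to -3.69 without imiquimod array 3). Adjusted p-values over the 16 ran between 0.0328 and 0.285. The difference was -1.20 with normexp correction (adjusted p = 0.0396).

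Soat1 esterifies cholesterol, and its 3 probes fell together. The brightest gave 1904, 1744 and 1908 on the imiquimod arrays, against 8987, 8045 and 10654 on the vehicle arrays. Arrays of a group were close to each other, with a 1.18-fold spread in imiquimod and a 1.49-fold spread in vehicle skin. Soat1 was 4.36-fold lower in imiquimod skin (95% confidence interval 3.21 to 5.93), a log2 difference of -2.13 (SE 0.18, adjusted p = 0.00222, limma). The other probes differed by -2.02 and -2.32 (adjusted p = 0.00359 and 0.00230, limma at probe level, where 9.72% of probes were called lower).

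Dgat2 forms triacylglycerol, also in fat and liver, and it was the tested gene that did not pass. Its brightest probe gave 41901, 61433 and 54034 on the imiquimod arrays, against 64643, 53839 and 74114 on the vehicle arrays, and the groups overlapped. The log2 difference was -0.11 (SE 0.20, adjusted p = 0.717, limma), with a 95% confidence interval of -0.61 to 0.39. The other probes gave 0.42 (interval -0.04 to 0.87) and 0.36 (interval -0.11 to 0.83). The probes did not share a direction, and none passed.

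Promoters are shown for Scd3, Far2, Awat2 and Soat1, which fell, so that the sequence upstream of each can be read side by side. Dgat2l6 also fell, but its window, which held no match, is not printed. Each is the 250 bases before a RefSeq start site in GRCm38.p6, 5′ to 3′ on the gene's strand, and sequences were at hand for 6 of the 10 genes. Capitals mark matches, on either strand, to common promoter motifs. The TATA box was searched as TATAAA. The CCAAT box was searched by its 5 letters. The half-site of nuclear receptors was searched as AGGTCA. The GC box bound by Sp1 was searched as GGGCGG. The E-box was searched as CACGTG. The direct repeat known for Pparg with Rxr was searched as AGGTCANAGGTCA and contains the half-site.
Scd3, chr19:44203038-44203287, plus strand: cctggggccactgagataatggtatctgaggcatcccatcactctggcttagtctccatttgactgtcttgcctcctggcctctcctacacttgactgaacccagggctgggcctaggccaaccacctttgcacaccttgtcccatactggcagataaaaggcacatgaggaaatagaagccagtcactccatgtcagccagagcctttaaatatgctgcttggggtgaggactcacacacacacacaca
Far2, chr6:148047166-148047415, plus strand: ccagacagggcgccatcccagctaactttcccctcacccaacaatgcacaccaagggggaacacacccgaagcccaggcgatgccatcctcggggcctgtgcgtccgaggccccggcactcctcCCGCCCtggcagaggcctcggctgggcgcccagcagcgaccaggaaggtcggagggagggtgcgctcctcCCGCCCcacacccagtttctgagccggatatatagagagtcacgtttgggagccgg
Awat2, second start site, chrX:100412588-100412837, minus strand: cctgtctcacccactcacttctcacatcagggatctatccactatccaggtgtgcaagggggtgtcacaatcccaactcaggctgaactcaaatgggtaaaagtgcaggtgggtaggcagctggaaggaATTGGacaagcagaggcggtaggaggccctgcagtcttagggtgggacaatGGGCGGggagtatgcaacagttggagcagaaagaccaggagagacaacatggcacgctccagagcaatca
Soat1, chr1:156474329-156474578, minus strand: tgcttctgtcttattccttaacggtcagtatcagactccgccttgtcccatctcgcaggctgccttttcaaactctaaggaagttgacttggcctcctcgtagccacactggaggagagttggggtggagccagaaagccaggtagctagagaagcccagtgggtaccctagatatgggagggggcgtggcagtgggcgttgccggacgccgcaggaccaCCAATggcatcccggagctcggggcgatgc
Far2 held a pair of GC boxes, Awat2 a CCAAT box and a GC box, and Soat1 a CCAAT box 30 bases before its start. The Scd3 window held none of these letters, nor did those of Dgat2l6 and Awat1, which are not printed. The window of the first Awat2 start site, also not printed, held a CCAAT box 85 bases before the start. Over 32851 promoter windows of the same length, 33.8% held a CCAAT box, 32.7% a GC box, 14.0% the half-site, 12.4% the TATA box, 6.0% the E-box and 0.033% the direct repeat. These matches are descriptions of the sequence, not binding sites.

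The 3 imiquimod arrays differed from each other in a partly repeated order. Among the 7 genes that fell, imiquimod array 1 was the lowest of its group in 5 and imiquimod array 2 the highest in 5. Their median deviations from the group mean were -1.02, 0.87 and 0.31 on the log2 scale in arrays 1, 2 and 3. For Dgat2l6 and Soat1 imiquimod array 2 was the lowest instead. Over all probes, 61.2% were well above background on imiquimod array 1, against 65.8% and 66.5% on imiquimod arrays 2 and 3. Whether that bears on the order was not tested. For Scd3, Far2 and Awat2 the signal on imiquimod array 1 was not well above background. Nor was it on imiquimod array 3 for Scd3 and Awat2, or on imiquimod arrays 1 and 2 for Dgat2l6. Of the 7 genes, only Elovl3, Fa2h and Soat1 were well above background on all 3 imiquimod arrays, so the order rests partly on signals near background. In vehicle skin, array 2 was the lowest in 6 of the 7 genes and array 3 the highest in 4, with median deviations of -0.10, -0.62 and 0.50 in arrays 1, 2 and 3. Elovl3 went against this, with its highest signal on vehicle array 2.

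Imiquimod array 1 shared its slide with the vehicle arrays, and arrays 2 and 3 did not. Imiquimod array 1 also had the lowest share of probes well above background, at 61.2%. With slide as a block, which rests on that 1 array against the vehicle arrays, 6 of the 8 genes fell, where 2.91% of all genes did. The log2 differences were -8.07 for Scd3, -6.49 for Elovl3, -7.08 for Fa2h, -7.46 for Far2, -7.21 for Awat2 and -2.01 for Soat1, with adjusted p-values of 0.00832 to 0.0287 (limma). Dgat2l6 differed by -2.46 and did not pass (adjusted p = 0.285). The estimates within slide 1 alone are the same, and there 0 of the 8 genes passed in limma, with 7 at an unadjusted p under 0.05, while 1 of all 17778 genes (0.00562%) was called lower. Without vehicle arrays 2 and 3, which leaves 1 vehicle array assumed to vary like the imiquimod arrays, 6 genes fell, where 7.56% of all genes did, and the differences ran between -7.72 for Scd3 and -2.00 for Soat1. Leaving out imiquimod array 1, 2 or 3 left 6 lower genes in each case, against 4.32%, 4.65% and 4.8% of all genes, and leaving out vehicle array 1, 2 or 3 did the same, against 4.19%, 12.5% and 11.1%. All 7 fell under normexp correction (10.1% of all genes), the mean of all probes (10.1%), the value table (10.2%), a variance trend (10.8%) and a block on array number (5.87%). Of the 8 genes 6 fell under quantile normalization (10.1%), and 3 of 4 with a filter on all 6 arrays (9.92%). Without a filter on dim probes 7 of 9 fell (4.8%), a count that includes the dim Mc5r but not Dgat2l6 (adjusted p = 0.0735, limma).

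Other genes of the sebaceous gland also fell, by less than an order of magnitude. Of 10 tested genes on a list of sebaceous gland genes that are not in the set, 6 fell, 0 rose and 4 did not pass. Over all genes tested, 10.5% fell and 13.1% rose. The median log2 difference of the 10 genes was -1.39, and an 11th, Muc1, was well above background on no array. Gata6, a transcription factor of the upper follicle and sebaceous duct, gave 95.8, 188 and 169 on the imiquimod arrays, against 1447, 1198 and 1595 on the vehicle arrays, a difference of -3.09 (SE 0.27, adjusted p = 0.00230, limma). Scd1, the desaturase whose loss causes the asebia phenotype in mice, differed by -1.89 (SE 0.23, adjusted p = 0.00490). Cidea, a lipid droplet protein, differed by -2.49 (SE 0.31, adjusted p = 0.00546). Plin2, which coats lipid droplets, differed by -1.30 and Krt79, a keratin of the infundibulum and sebaceous duct, by -2.32 (adjusted p = 0.0138 and 0.0177). Pparg, the nuclear receptor of sebocyte differentiation, differed by -0.90 (SE 0.31, adjusted p = 0.0856) and did not pass. Plin2 did not pass in the fit blocked by slide (adjusted p = 0.126) or without imiquimod array 2 or 3 or vehicle array 1 (0.0534, 0.0563 and 0.0590). Krt79 did not pass without the arrays of status evaluate (adjusted p = 0.103), without imiquimod array 3 (0.0504) or without vehicle array 1 (0.0676), and 3 of the 10 genes passed without vehicle array 1 or without imiquimod array 3.

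Within the gene families of the set, relatives moved unevenly. Of 15 measured relatives 4 fell, 1 rose and 10 did not pass, with a median of -0.20. The relatives of Mc5r, the receptors Mc1r, Mc2r, Mc3r and Mc4r, are counted among those that did not pass. They were dim, with signals of 15.7 to 395. Scd1, among those that fell, is also on the list of other sebaceous gland genes. Among all genes tested 10.5% fell and 13.1% rose. Among the elongases, Elovl6, which acts on palmitate, had signals of 2559, 5185 and 4700 on the imiquimod arrays, against 66446, 50415 and 79089 on the vehicle arrays, and differed by -3.83 (SE 0.31, adjusted p = 0.00206, limma). Elovl5, an elongase of polyunsaturated acids, differed by -2.46 (SE 0.23, adjusted p = 0.00260), and Elovl4, Elovl7 and Elovl1 did not pass, at -0.30, -0.20 and 0.17. Beside the fall of Scd3 and Scd1, Scd2 differed by 0.81 (SE 0.43, adjusted p = 0.215). Far1, the other acyl-CoA reductase, differed by -0.73 (SE 0.10, adjusted p = 0.00774), beside -5.74 for Far2, and did not pass in the fit blocked by slide (adjusted p = 0.0591). Mogat2, a monoacylglycerol acyltransferase, was the relative that rose, by 1.33 (SE 0.24, adjusted p = 0.0157), but did not pass in a fit blocked by slide (adjusted p = 0.114) or by array number (0.0508), nor without vehicle array 1 or imiquimod array 1 or 3 (adjusted p = 0.0555, 0.0603 and 0.0507). The differences between relatives were not tested. The Scd genes are close copies, and whether a probe binds more than 1 of them was not tested.

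**Figure D2:**
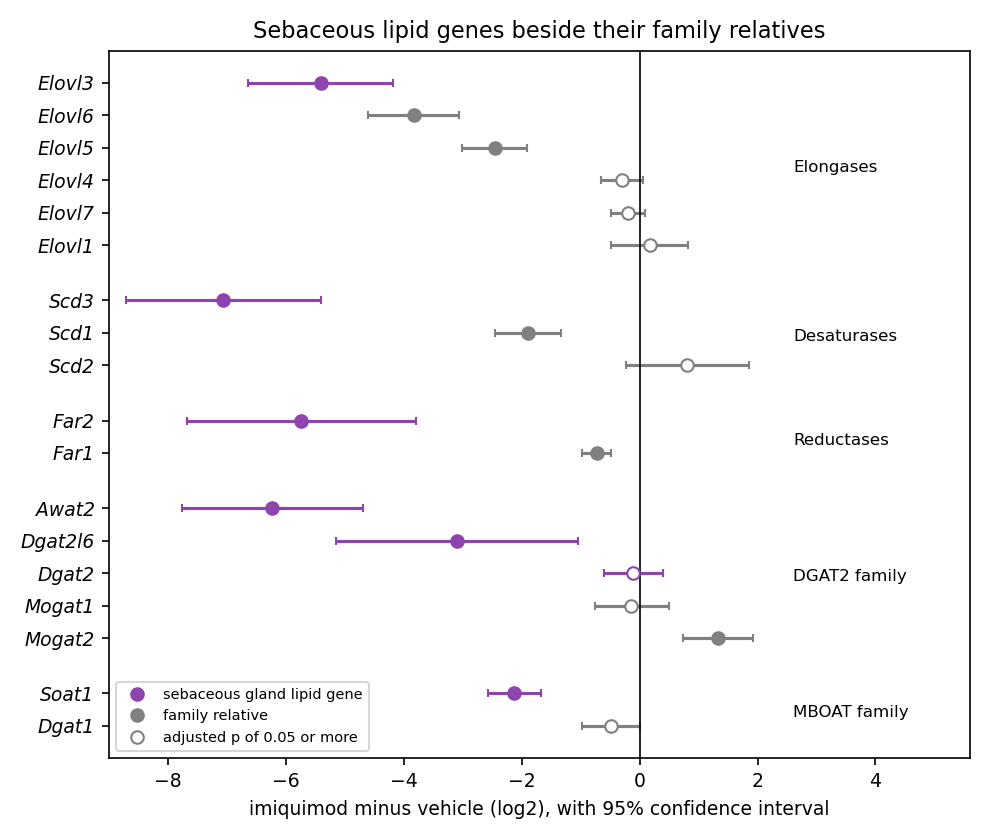
Log2 difference, imiquimod minus vehicle, with its 95% confidence interval for the tested sebaceous lipid genes (purple) and their relatives (grey) in families with a tested member other than Fa2h, filled where the adjusted p is under 0.05. Elovl3, Scd3, Far2 and Awat2 lie at -5.41 to -7.06, while Dgat2 at -0.11 and Mogat1 at -0.14 lie near 0.

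Of 14 genes that supply fatty acids and assemble acylglycerols, 3 fell, 0 rose and 11 did not pass, with a median of -0.53. For comparison, 10.5% of all genes tested fell and 13.1% rose. Acacb, a mitochondrial acetyl-CoA carboxylase, differed by -2.62 (SE 0.39, adjusted p = 0.00890, limma). Acsl4 and Acsl5, which activate long-chain fatty acids, differed by -0.91 and -1.11 (adjusted p = 0.0192 and 0.0201). Fasn, fatty acid synthase, differed by -0.42 (SE 0.20, adjusted p = 0.175). With slide as a block, 0 of these 14 genes passed in limma, with 4 at an unadjusted p under 0.05, while 2.91% of all genes fell. Without imiquimod array 1, 2 or 3 or vehicle array 1, 1 gene fell (4.19% to 4.8% of all genes). Without vehicle array 3, 5 did (11.1%).

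Markers of some other skin cells moved with the treatment too. The marker counts here and in the next paragraph stand beside 10.5% of all genes tested that fell and 13.1% that rose. Of the hair follicle list 8 of 10 genes were measured and 6 fell, Krt25 and Krt85 were well above background on no imiquimod array, and the summed level relative to the 75th percentile was 4.64 to 6.28 in imiquimod skin, against 120 to 1240 in vehicle skin. Krt27, a keratin of the inner root sheath, gave 129, 278 and 330 on the imiquimod arrays, against 116377, 247166 and 11645 on the vehicle arrays (-8.07, adjusted p = 0.00656, limma). Tchh, trichohyalin of the root sheath, gave 3326, 2772 and 4304 on the imiquimod arrays, against 120036, 189885 and 18203 on the vehicle arrays (-4.27, adjusted p = 0.0176). The order of the vehicle arrays was another one there. The hair follicle sum was 723, 1240 and 120 on vehicle arrays 1, 2 and 3. That of 5 measured genes of a sebocyte list (Scd1, Pparg, Plin2, Cidea and Krt79) was 238, 194 and 281. The sebocyte list sum was 50.9 to 73.7 in imiquimod skin, against 194 to 281 in vehicle skin. Its 5 genes are all among the other sebaceous gland genes above, so the sum is not a separate result. Krt79, a keratin of the infundibulum and duct, was the brightest of them on every vehicle array. The part of hair follicle content in the fall of the sebaceous genes was not tested.

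Adipocyte markers changed in 1 of 8 genes, Lep, the gene of the hormone leptin (-2.07, adjusted p = 0.00549, limma), and their sums overlapped, at 237 to 320 in imiquimod skin and 242 to 516 in vehicle skin. Cfd and Fabp4, abundant in fat, differed by -0.42 and -0.34 (adjusted p = 0.417 and 0.266, limma), and all 8 were well above background in both groups. All 5 activated keratinocyte markers rose, with sums of 1420 to 1630 in imiquimod skin and 15.4 to 94.0 in vehicle skin. Of the epidermal keratinocyte markers 3 of 7 rose and 0 fell, with sums of 1890 to 2080 in imiquimod skin and 988 to 1300 in vehicle skin. Leukocyte markers rose in 4 of 5 genes, with sums of 267 to 312 in imiquimod skin and 78.4 to 168 in vehicle skin. The other, the T cell gene Cd3e, went the other way, at -0.76 (SE 0.28, adjusted p = 0.102, limma), and did not pass. It was too dim to weigh in the sum. Of the melanocyte markers 0 of 3 passed in limma (0 at an unadjusted p under 0.05), and Tyr was well above background on no imiquimod array. Their sums were 10.2 to 13.2 in imiquimod skin and 55.1, 89.0 and 10.4 on vehicle arrays 1, 2 and 3. Without vehicle array 3, all 3 were at an unadjusted p under 0.05 in limma, as were 7192 of all 17778 genes. Of the skeletal muscle markers 0 of 4 passed (0 at an unadjusted p under 0.05), with sums of 212 to 355 in imiquimod skin and 217 to 484 in vehicle skin. The share of these cells in the sample was not measured.

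**Figure D3:**
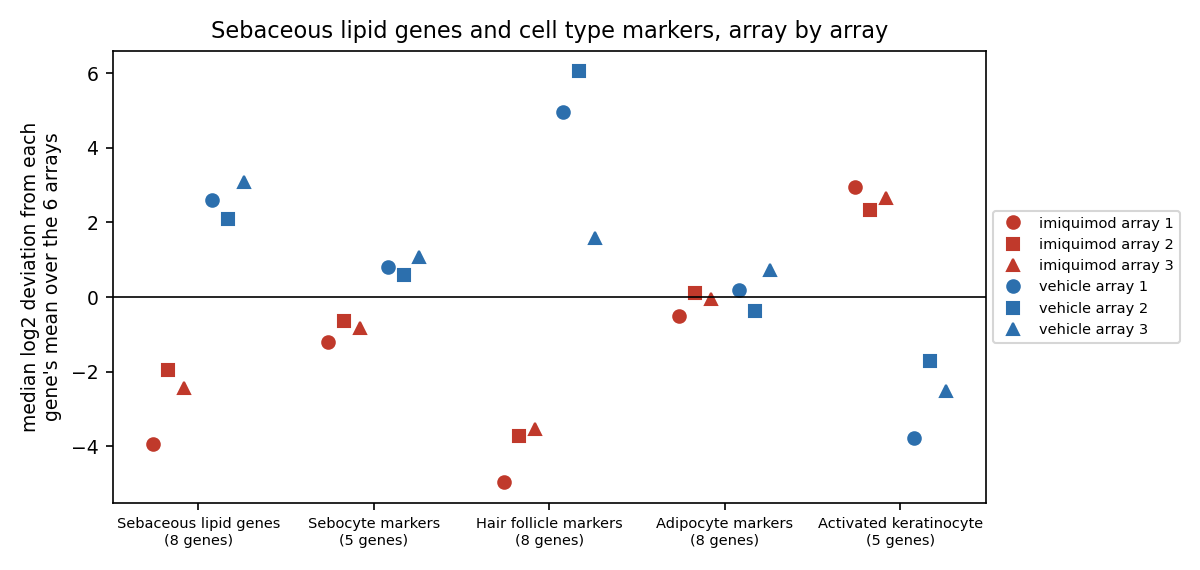
Median log2 deviation of each gene group from its genes' means over the 6 arrays, 1 symbol per array, imiquimod in red and vehicle in blue, with the number of genes on the axis. Sebaceous lipid genes lie at -3.94 to -1.96 in imiquimod skin and at 2.10 to 3.09 in vehicle skin. Vehicle array 3 is the highest for these genes but the lowest of its group, at 1.58, for hair follicle markers. Scd3, Far2, Awat2 and Dgat2l6 met the minimum for testing through the vehicle arrays alone, which favours genes that differ.

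The probes that represent the genes lie, in the mm9 coordinates of the array files, at chromosome 19 from 44316703 to 44316762 for Scd3 and from 46209762 to 46209821 for Elovl3. Those of Fa2h lie at chromosome 8 from 113869301 to 113869360 and of Far2 at chromosome 6 from 148124096 to 148124155. Awat2 is probed at chromosome X from 97597881 to 97597940 and Dgat2l6 from 97739465 to 97739524. Soat1 is probed at chromosome 1 from 158359977 to 158360036 and Dgat2 at chromosome 7 from 106302215 to 106302274. No exon annotation of that build was used here.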

How the data were processed

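The scanner files come from Agilent Feature Extraction, version 10.7.3.1 per the file headers and 9.1 per the submitters' processing notes. Their deposited columns give linear spot intensity, both as read (mean and local background) and processed, with background removed and the signal detrended. The authors' deposited value table holds log2 values, with all column medians at 7.05 and a normalization not given in the sources used here.

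Control spots and 322 spots marked as outliers on any array were left out, spots of a probe were averaged as log2 signals, and each array's 75th percentile (861 to 1106) was subtracted. A probe was tested if 3 or more of the 6 arrays had it well above background, and a gene was represented by its brightest tested probe. The comparison used limma 3.58.1 under R 4.3.3 (no covariates, two-sided, Benjamini-Hochberg adjustment over 17778 genes), after a test on simulated data. Same-numbered arrays did not deviate together (correlations of -0.0872, 0.0676 and 0.0854 across genes).

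The genes of the set and the lists were chosen with earlier results of these data known. The whole set is described. Of each list the 3 genes of smallest p that passed are named, with every gene that passed where 5 or fewer did in a direction. Plin2, Krt79, Pparg, Muc1, Lep, Tyr, Scd2, Mogat1, Elovl1, Elovl4, Elovl7 and Fasn were named after their values were seen. So were Cd3e, Mc1r, Mc2r, Mc3r, Mc4r, Krt25, Krt85 and the keratins that check the tissue. One gene that passed on the list of other sebaceous gland genes is counted but not reported here. Of the cell type lists, the other genes given with values come from the 2 of highest mean signal. Alternatives were another normalization, background correction, filter, probe rule and variance model, slide, replicate number, each array left out, the arrays of status evaluate left out, and the value table.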

Additional observations from a re-analysis of the deposited data

How the results depend on the processing

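The fall of Scd3, Elovl3, Fa2h, Far2, Awat2 and Soat1 passed in every alternative that could test them except slide 1 alone, where 1 imiquimod array met 3 vehicle arrays and 0 genes of the set passed (adjusted p = 0.0546 for Elovl3 to 0.0979 for Soat1, limma). With a filter on all 6 arrays, 3 genes of the set fell of 4 still tested, since fewer genes were tested. Leaving out 1 array at a time gave 6 lower genes of the set in each case, and 0 higher. Over all genes, 1866 were lower and 2330 higher. The counts were 1043 and 1164 with the replicate number as a block (replicate block), 518 and 541 with slide as a block, and 1 and 7 within slide 1. Without 1 array they were 745 to 2215 lower and 944 to 2514 higher. The cause of these shifts was not tested, beyond the fewer samples or residual degrees of freedom that each fit leaves. The replicate block kept all 7 falls of the set. With 1 array left out, Dgat2 ran between -0.25 without vehicle array 2 and 0.06 without vehicle array 3 (adjusted p = 0.813). It was -0.34 with slide as a block, 0.22 when its probes were averaged (adjusted p = 0.436), and passed in 0 of 17 alternatives (adjusted p = 0.328 to 1.0). The value table, which comes from the same arrays, gave -7.03 for Scd3, -5.38 for Elovl3, -5.92 for Fa2h, -5.63 for Far2, -6.10 for Awat2, -2.89 for Dgat2l6, -2.17 for Soat1 and -0.30 for Dgat2. Signals near background limit the sizes given for Scd3, Far2, Awat2 and Dgat2l6.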
